A study of Sus scrofa with 12 samples.

Results

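AMP-activated protein kinase (AMPK) is the energy sensor of the cell, and the chromatin of the 7 genes that encode its subunits was compared between Luchuan and Duroc pigs. The genes are PRKAA1, PRKAA2, PRKAB1, PRKAB2, PRKAG1, PRKAG2 and PRKAG3. An accessible region was assigned to one of them when its midpoint lay in the gene body of Sscrofa11.1 or within 10 kb of it. The assignment went by position alone, but the regions themselves are peak calls, which depend on the reads of a breed. Of the 217213 peak intervals in the deposited table, 140 met this rule, and after merging of the overlapping intervals called in both breeds they were 83 of 140081 regions. ATAC-seq, in which a transposase cuts open chromatin, had been performed on the longissimus dorsi muscle of 3 Luchuan boars, a Chinese breed that lays down much fat, and 3 Duroc boars, a lean breed. All boars were 180 days old, kept under the same conditions and fasted overnight before death, and neither breed had received a treatment. The table gives 1 read count per breed and region and no count per boar, so the values below have no standard deviation, differences between the breeds could not be tested and differences between boars of a breed cannot be told apart from those between breeds.

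AMPK is a heterotrimer of a catalytic alpha subunit, a scaffolding beta subunit that binds glycogen and a gamma subunit that binds AMP, ADP and ATP. When energy is low, it is activated by phosphorylation of the alpha subunit and turns on fatty acid oxidation, glucose uptake and mitochondrial biogenesis while it restrains lipid and protein synthesis. Skeletal muscle uses mainly the alpha subunit of PRKAA2 and the beta subunit of PRKAB2, and PRKAG3 encodes a gamma subunit that is largely restricted to fast glycolytic muscle. Variants of PRKAG3 are known in pigs for their effects on muscle glycogen and pork quality.

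The Luchuan counts were multiplied by 1.48, which sets the median log2 ratio of the regions called in both breeds to 0, and a log2 ratio below 0 means more reads in Duroc. Intervals in brackets are 95% Clopper-Pearson intervals and cover counting error only. Over the 83 regions together Duroc had 20141 reads and Luchuan 12136, or 17908 after scaling, a log2 ratio of -0.17 (-0.20 to -0.14). Of the 83 regions, 65 had a log2 ratio below 0, which is 78.3% against 51.7% of all regions. Their median log2 ratio was -0.26, against -0.02 over all regions. Among the 52 AMPK regions called in both breeds, 39 were below 0, which is 75% against 50.6% of all such regions. The median of these 52 was -0.18, against -0.005. Most AMPK regions thus had somewhat more reads in Duroc, and few differed by much. In 2 regions Duroc was 2-fold or more higher, which is 2.41% against 5.7% of all regions, and in 0 regions Luchuan was, against 7.11% of all regions. Both of the 2 regions were called in Duroc only. All regions include many weaker than any AMPK region, and the weakest 5663, with a median of 20 reads, had a median log2 ratio of 0.90. Shares at like depth were not computed. With the clean reads per library in place of the regions as the measure of depth, all log2 ratios shift by -0.20, and PRKAA1 and PRKAB2, the genes above 0, are then below it. That scaling also moves the share of Duroc among all regions past 2-fold from 44.5% to 63.9%, and gives 5 AMPK regions 2-fold higher in Duroc and again 0 in Luchuan.

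By the sum of its regions, PRKAG3 had the lowest log2 ratio of the family, -0.30, and it was followed by PRKAA2 with -0.25, PRKAB1 with -0.19, PRKAG2 with -0.18 and PRKAG1 with -0.12. PRKAA1 was at 0.09 and PRKAB2 at 0.16, both below 0 with scaling by clean reads. The counting intervals of all neighbours in this order overlapped, including those of PRKAG1, -0.25 to 0.01, and PRKAA1, -0.02 to 0.21. The interval lay below 0 for PRKAG3, PRKAA2, PRKAB1 and PRKAG2, above 0 for PRKAB2, and on both sides of 0 for PRKAG1 and PRKAA1. The interval of PRKAB1 included 0 without the regions nearer to another gene, and that of PRKAB2 with scaling by clean reads. The interval was thus below 0 for 4 of 7 genes, against 25.5% of the 16986 protein-coding genes with a region, and above 0 for 1 of 7, against 22.5%. More reads narrow an interval, and all 7 genes had more Duroc reads than the median gene, which had 1002. These shares are therefore not compared at like depth. None of the 7 genes reached 2-fold in either direction. Only 3.51% of all genes did, so that none of 7 does not set the family apart. Among all genes, 10.8% had a lower log2 ratio than PRKAG3 and 14.1% a lower one than PRKAA2. By subunit type, the gamma genes summed to -0.22 (-0.26 to -0.18), the alpha genes to -0.15 (-0.21 to -0.09) and the beta genes to 0.02 (-0.07 to 0.11). The beta sum joins PRKAB1, at -0.19, with PRKAB2, at 0.16, so a sum near 0 does not describe either gene.

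**Figure D1:**
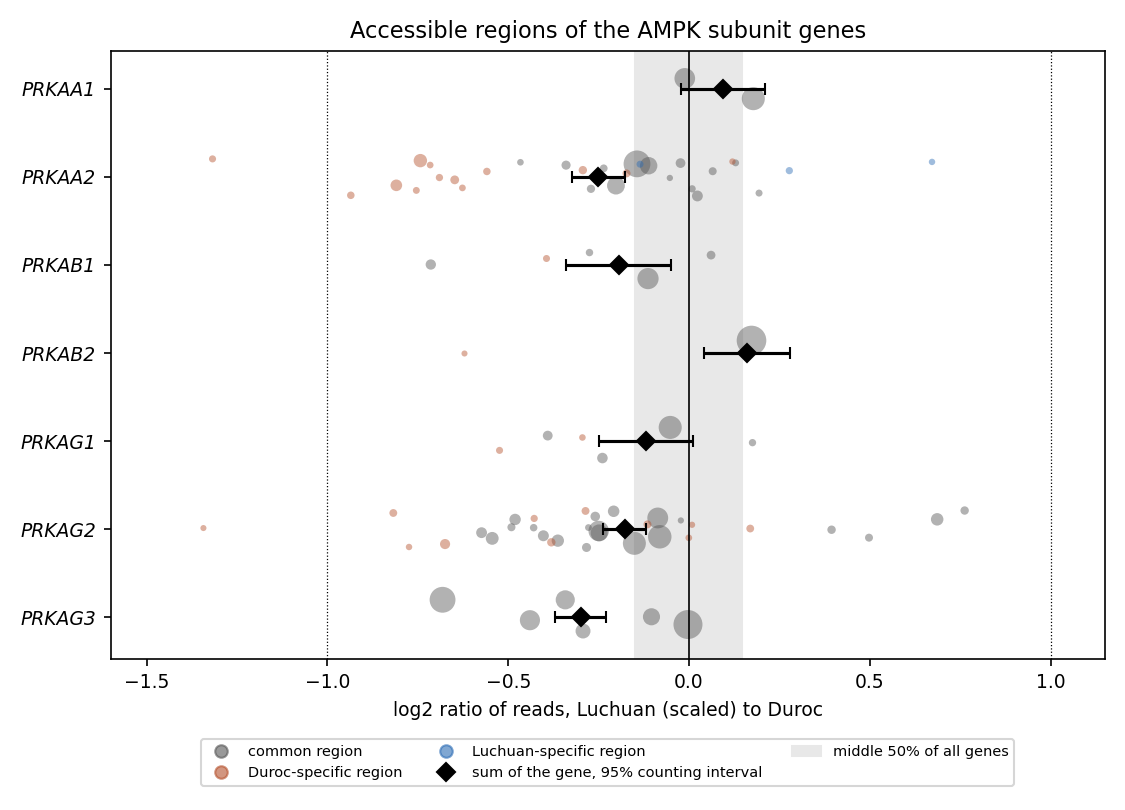
The log2 ratio of Luchuan (scaled) to Duroc reads is on the x axis, with 1 row per AMPK gene. Circles are regions, with an area that grows with their reads and colors for common, Duroc-specific and Luchuan-specific calls, diamonds with bars are the sums per gene with their 95% counting intervals, the grey band holds the middle 50% of all genes and dotted lines mark 2-fold. PRKAG3 has the lowest sum, -0.30, and PRKAB2 the highest, 0.16 (-0.034 with scaling by clean reads), and no sum comes near 2-fold.

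PRKAG3 encodes the gamma 3 subunit and lies on chromosome 15 from 120859486 to 120866308. Of the family it had the most reads per kb. Its window, the gene with 10 kb on both sides, held 175.4 Duroc reads and 142.5 scaled Luchuan reads per kb, more than 99.6% of the protein-coding genes, while the other AMPK windows held between 21.4 and 45.4 Duroc reads per kb. Accessible regions covered 19.7% of this window, and all 6 of them were common to both breeds.

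The strongest region of PRKAG3, chr15:120865987-120867309, spans the gene end with the higher coordinate. Duroc had 1344 reads here and Luchuan 909, and the log2 ratio was -0.003 (-0.13 to 0.12). After scaling the breeds were near equal at this region, and by reads per kb it exceeded 99.5% of all regions. The annotation used here carries neither strand nor exons, so whether a gene end is a promoter, and whether a region is exonic, intronic or in an untranslated region, was not determined.

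The differences at PRKAG3 lay in the regions around that one. The widest of them, chr15:120856932-120858278, lies outside the gene and 1.88 kb from its lower end, and had 1248 Duroc and 527 Luchuan reads, a log2 ratio of -0.68 (-0.83 to -0.53). The region chr15:120871664-120872532, beyond the other end, had 699 and 349 reads and a log2 ratio of -0.44 (-0.63 to -0.25). Inside the gene, chr15:120864489-120865201 had 612 and 327 reads and a log2 ratio of -0.34 (-0.54 to -0.15). All of these intervals lay below 0.

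The remaining PRKAG3 regions differed less. Across the lower end of the gene, chr15:120859198-120859655 had 351 reads in Duroc and 194 in Luchuan, with a log2 ratio of -0.29 (-0.55 to -0.04). The region chr15:120853377-120853941 had 452 and 285 reads and a log2 ratio of -0.10 (-0.32 to 0.11), and it is closer to CYP27A1, a gene of sterol metabolism, than to PRKAG3. With only the region inside the gene body, the log2 ratio of PRKAG3 was -0.34, and without its strongest region the sum was -0.44.

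At the region below PRKAG3 the Duroc call was 1347 bases wide and the Luchuan call inside it 561 bases. Within the Luchuan call, Duroc had 573 and Luchuan 285 reads, a log2 ratio of -0.45. A longer call in Duroc was common in the whole table, in 69.2% of the 61464 common regions with 1 call from each breed, and in 32 of 48 such AMPK regions.

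**Figure D2:**
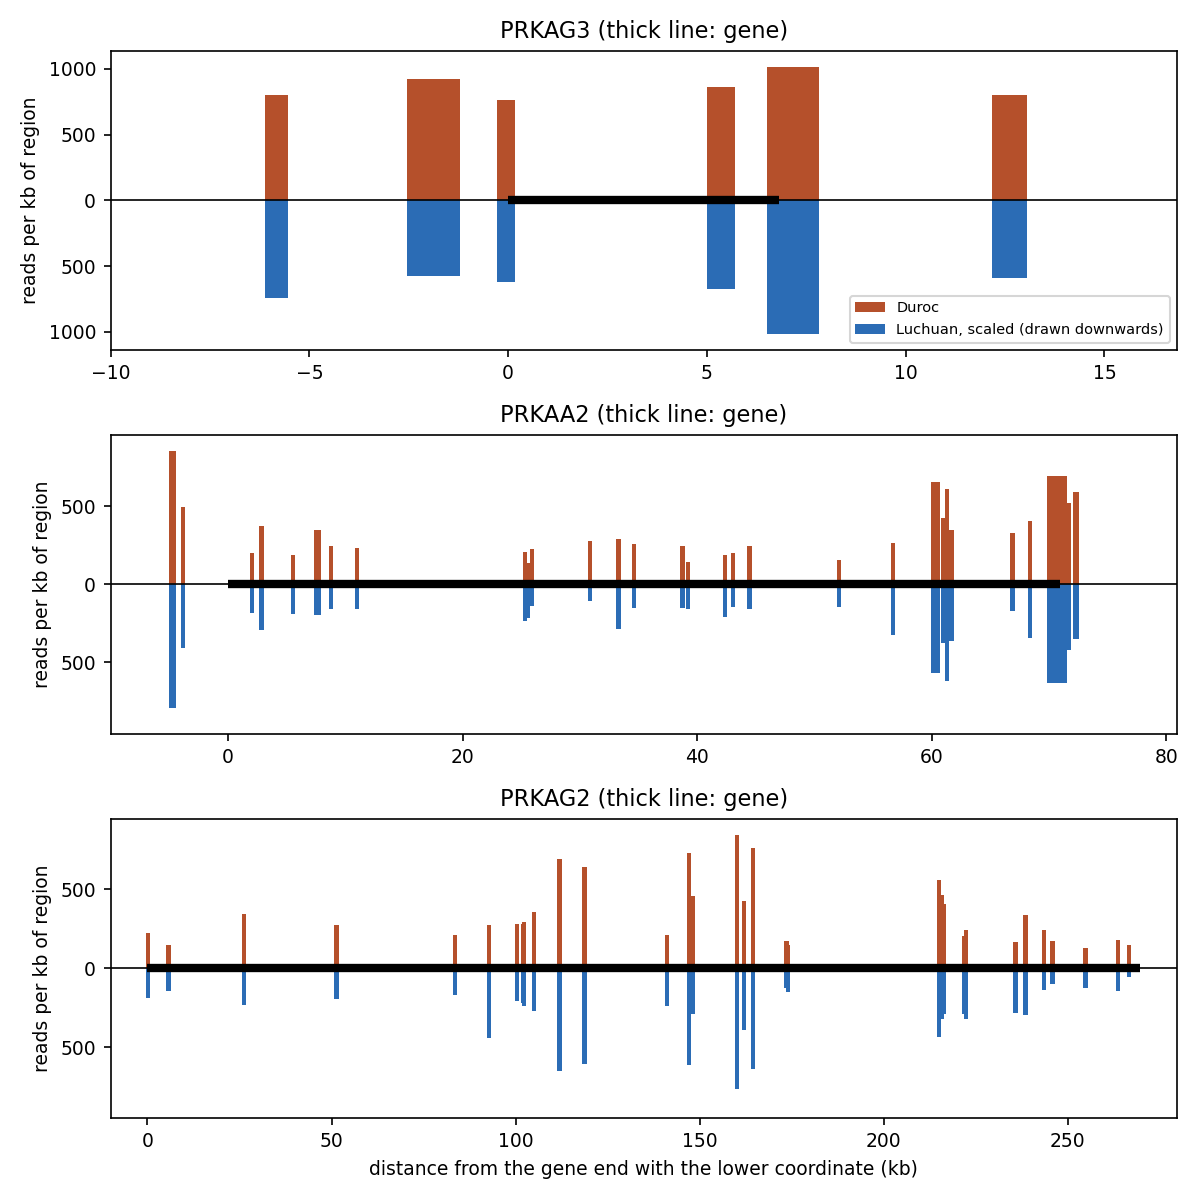
The x axes give the distance in kb from the gene end with the lower coordinate for PRKAG3, PRKAA2 and PRKAG2, and bars give reads per kb of region, upwards for Duroc and downwards for Luchuan after scaling. A thick line marks the gene and narrow regions are drawn wider than they are. PRKAG3 holds 6 tall regions in a short window, and PRKAA2 and PRKAG2 hold 30 and 32, most of them low.

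PRKAA2 encodes the alpha 2 catalytic subunit, the main one of skeletal muscle, and lies on chromosome 6 from 155683392 to 155754283. Its 30 regions, or 3.30 per 10 kb of window, made it denser in regions than 97.9% of the genes. Duroc had 4130 and Luchuan 2352 reads over these regions, a log2 ratio of -0.25 (-0.32 to -0.18), and 22 of the 30 were below 0. By peak calls, 14 were common, 13 Duroc-specific and 3 Luchuan-specific. The Duroc-specific regions had a median log2 ratio of -0.69 (range, -1.32 to 0.12) and the common ones of -0.08. A peak call depends on the reads of a breed, and over the whole table Duroc-specific regions had a median log2 ratio of -0.39.

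The region of PRKAA2 with the most reads, chr6:155753235-155754941, spans the gene end with the higher coordinate. With 1187 Duroc and 728 Luchuan reads its log2 ratio was -0.14 (-0.28 to -0.01). Just outside it, the Duroc-specific region chr6:155755408-155755920 had 302 and 122 reads and a log2 ratio of -0.74 (-1.06 to -0.44), and chr6:155755027-155755176 between them had 78 and 43 reads and -0.29 (-0.87 to 0.26). The log2 ratio was lower in the flank of this gene end than at the end itself.

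Inside PRKAA2, the Duroc-specific region chr6:155714137-155714326 was 2-fold or more higher in Duroc, the breed in which it was called. Its reads were 53 in Duroc and 14 in Luchuan, with a log2 ratio of -1.32 (-2.32 to -0.49). The region chr6:155690725-155691355, also Duroc-specific and 7.65 kb from the lower end, had 218 and 84 reads and a log2 ratio of -0.81 (-1.20 to -0.45). Intervals below 0 were also found for chr6:155750175-155750367, with 63 and 22 reads, and chr6:155727660-155728064, with 100 and 43 reads. These regions too were called in Duroc only, and such a call favors a log2 ratio below 0. The 3 Luchuan-specific regions had 20 to 40 Duroc and 22 to 33 Luchuan reads and log2 ratios of -0.14, 0.28 and 0.67, and their intervals all included 0. Nearest to the lower end was one of these, chr6:155685316-155685507, with 39 and 24 reads and a log2 ratio of -0.14 (-0.94 to 0.63). The stronger region chr6:155678391-155678942, with 472 and 296 reads and a log2 ratio of -0.11, lies inside the neighbouring gene C6H1orf168. Another 3 regions lie in the pseudogene LOC102158444 within PRKAA2, and their log2 ratios were -0.17, 0.02 and 0.07.

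PRKAA1 encodes the alpha 1 subunit, which is found in most tissues, and lies on chromosome 16 from 25745902 to 25783524. Only 2 regions were assigned to it, and 12.4% of the genes had fewer regions per 10 kb. The region chr16:25783002-25784121, at its upper end, held 662 reads in Duroc and 445 in Luchuan, with a log2 ratio of -0.01 (-0.19 to 0.16). The other, chr16:25741318-25742228, had 793 and 608 reads and a log2 ratio of 0.18 (0.02 to 0.33), and it lies within the neighbouring gene TTC33.

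PRKAB2 encodes the beta 2 scaffold, the main one of skeletal muscle, and lies on chromosome 4 from 100378047 to 100394346 within the span of CHD1L, a chromatin remodeler. Nearly all of its reads, 98.5% of those of Duroc, were in 1 region at its lower end, chr4:100377645-100379048. Duroc had 1336 and Luchuan 1019 reads in it, a log2 ratio of 0.17 (0.05 to 0.29), and by reads per kb it exceeded 99.5% of all regions. It was the only region of the beta genes whose interval lay above 0, and with scaling by clean reads the log2 ratio of PRKAB2 was -0.034. The remaining region, chr4:100389701-100389867, held 21 reads in Duroc and 9 in Luchuan, with a log2 ratio of -0.62 (-1.97 to 0.53). Both PRKAB2 regions also lie inside CHD1L, so the reads of these genes cannot be told apart. They did not count as closer to another gene, so leaving out such regions kept them.

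PRKAB1 encodes the beta 1 scaffold and lies on chromosome 14 from 33201359 to 33217641. Its strongest region, chr14:33217123-33218128 at the higher end, held 720 reads in Duroc and 451 in Luchuan, with a log2 ratio of -0.11 (-0.29 to 0.06). The lowest log2 ratio of PRKAB1 was that of chr14:33197716-33198207, 3.40 kb below the gene, with 158 and 65 reads and a value of -0.71 (-1.16 to -0.29). This region lies closer to CIT, which encodes a kinase of cell division, and without the regions closer to another gene the log2 ratio of PRKAB1 was -0.11, with an interval of -0.27 to 0.05 that includes 0. Inside the gene, chr14:33202531-33202886 had 82 and 58 reads and chr14:33203938-33204179 had 43 and 22, with log2 ratios of 0.06 and -0.39. The region chr14:33224487-33224690, inside TMEM233, had 52 and 29 reads and a log2 ratio of -0.28. The intervals of these 3 regions included 0.

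PRKAG1 encodes the gamma 1 subunit, which is widely expressed, and lies on chromosome 5 from 15033051 to 15049676 between DDN and KMT2D. Its strongest region, chr5:15048773-15049850, reaches past its higher end and into KMT2D, which encodes a histone methyltransferase, so the reads of these neighbours cannot be told apart. Duroc had 846 reads there and Luchuan 553, a log2 ratio of -0.05 (-0.21 to 0.10). Of the other 5 regions, chr5:15046344-15046608 inside the gene had 128 and 66 reads and a log2 ratio of -0.39 (-0.85 to 0.05). The 4 regions nearer to another gene were chr5:15027130-15027569 with 150 and 86 reads, chr5:15025872-15026054 with 43 and 33, and chr5:15029674-15029850 with 31 and 17, all within DDN, and chr5:15057940-15058089 within KMT2D with 45 and 21. None of the 6 intervals lay off 0.

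PRKAG2 encodes the gamma 2 subunit, which is best known from the heart, and lies on chromosome 18 from 5475077 to 5744761. It is the longest gene of the family, 269.7 kb, and all of its 32 regions had their midpoint inside it, 21 common and 11 Duroc-specific. Duroc had 6195 and Luchuan 3711 reads, a log2 ratio of -0.18 (-0.24 to -0.12), and 26 of the 32 regions were below 0. The intervals of 10 regions lay below 0 and those of 2 above it, so regions of the same gene pointed in opposite directions.

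The open chromatin of PRKAG2 was concentrated in the middle of the gene and not at its ends. The 6 regions with 200 or more reads of both breeds between 112.0 and 164.5 kb from the lower end held 60.3% of the Duroc reads of the gene, and their log2 ratio together was -0.17 (-0.25 to -0.09). The one with the most reads, chr18:5593165-5594551, had 885 reads in Duroc and 567 in Luchuan, with a log2 ratio of -0.08 (-0.24 to 0.07). At the lower end, chr18:5474959-5475469 had only 115 and 65 reads and a log2 ratio of -0.26 (-0.72 to 0.19). Nearest to the higher end was the Duroc-specific region chr18:5741720-5741879, with 24 and 6 reads and a log2 ratio of -1.34 (-3.02 to -0.11). It was the other AMPK region past 2-fold and one of the weakest of the family. It lies within the long noncoding RNA LOC102162623.

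Neighbouring stretches of PRKAG2 differed in direction. The 3 regions between 215.0 and 216.4 kb had 685 Duroc and 336 Luchuan reads in all, a log2 ratio of -0.47 (-0.66 to -0.28). The 3 regions between 221.9 and 235.8 kb had 176 reads in either breed, a log2 ratio of 0.56 (0.25 to 0.87). Among these, chr18:5710729-5711070 had 57 reads in Duroc and 66 in Luchuan, with the highest log2 ratio of all AMPK regions, 0.76 (0.24 to 1.31). The other region with its interval above 0, chr18:5567492-5568122, had 172 and 188 reads and a log2 ratio of 0.69 (0.38 to 1.0). These stretches were chosen after their values had been seen.

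The AMPK regions were also set beside all regions split by place and by reads, although place was not defined alike in the 2 sets. Within 1 kb of an end of their own gene, 9 AMPK regions had a median of -0.11, against 0.02 for the 19239 regions at an end of any protein-coding gene. Farther inside the gene, 61 AMPK regions had a median of -0.28, against -0.05. In the flanks, 13 had -0.28, against -0.07. AMPK regions were placed by their own gene alone. All regions were placed by any protein-coding gene, with an end before the inside and the inside before a flank. Flank regions of AMPK genes that lie inside TTC33, C6H1orf168, TMEM233, DDN or KMT2D would thus not count as flank among all regions. The flank medians are therefore not of like sets. Among regions with 200 or more reads, 28 of 32 AMPK regions were below 0 with a median of -0.22, whereas 55.7% of all such regions were below 0 with a median of -0.04. Regions of 1 gene are neighbours on 1 chromosome and are not independent of each other. The intervals of 21 AMPK regions lay below 0, which is 25.3% against 15.7% of all regions, and those of 4 lay above it, 4.82% against 13.4%. With scaling by clean reads 43 lay below 0, which is 51.8% against 28.2% of all regions, and 2 above it, 2.41% against 6.83%.

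**Figure D3:**
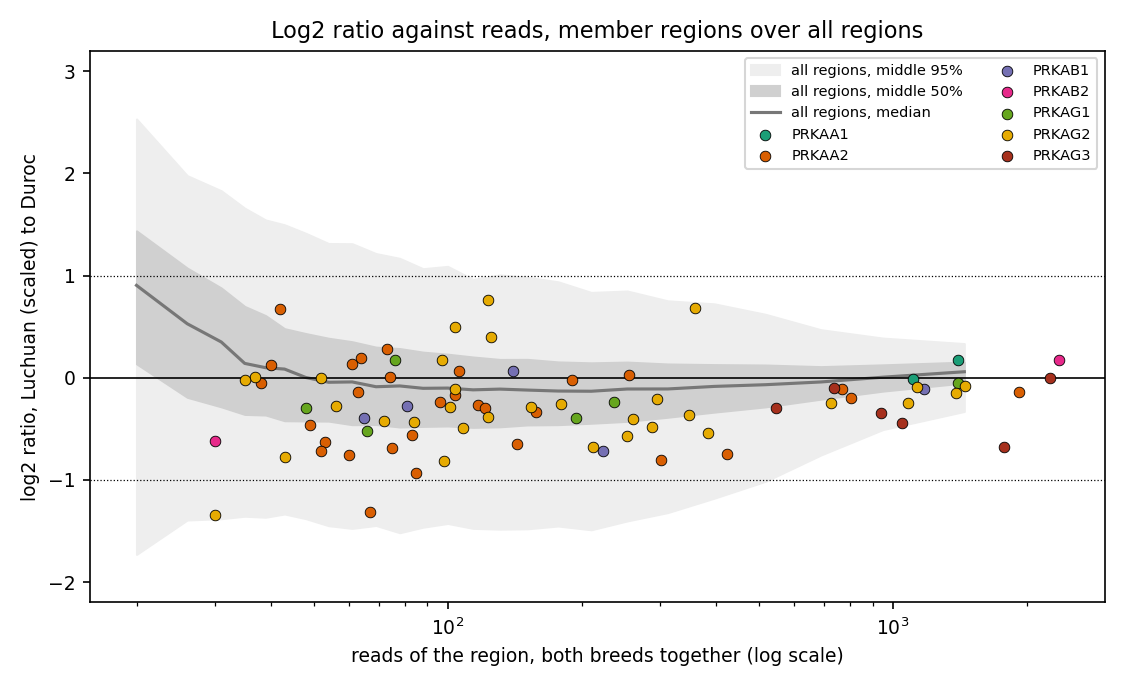
The x axis gives the reads of a region in both breeds together on a log scale and the y axis the log2 ratio of Luchuan (scaled) to Duroc. Bands hold the middle 50% and 95% of all regions at each number of reads, the grey line is their median, and points are the 83 AMPK regions, colored by gene. Most points lie below the line, and the strongest regions of PRKAB2 and PRKAA1 lie above 0, where scaling by clean reads, a shift of -0.20, would not leave them.

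By class, 33.7% of the AMPK regions were Duroc-specific, close to the 31.8% of all regions, and 3.61% were Luchuan-specific, which is 3 regions and all of them in PRKAA2, against 19.1%. Luchuan-specific regions had a median of 20 Luchuan reads in the whole table. Of the 83 regions, 10 lay closer to another protein-coding gene than to the AMPK gene, and without them the median of the family was still -0.26. The limit of 10 kb cut between a region of PRKAG1 at 8.34 kb, with 45 reads in Duroc, 21 in Luchuan and a log2 ratio of -0.52, and a region 10.2 kb from PRKAB2, with 46 and 19 reads and -0.69.

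For the genes around AMPK, log2 ratios lay on both sides of 0 in similar numbers. A list of 56 genes of the pathway was examined, of which 55 had regions and MARK3 was not analysed here. Their median log2 ratio was -0.02, with 29 below 0, and over all genes it was -0.01 with 51.1% below 0. Intervals lay below 0 for 17 and above 0 for 13 of the 55, and 0 genes were 2-fold higher in either breed, against 0.983% of all genes in Duroc and 2.53% in Luchuan. At such shares few of 55 genes would be, so that 0 does not set the pathway apart. The upstream kinase complexes had a median of 0.01, the partners and regulators of -0.09 and the lipid targets of 0.05. The glucose and glycogen targets had a median of 0.03, the growth and autophagy targets of -0.10, the transcription targets of -0.06 and the related kinases of 0.03.

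At the Luchuan end of the list were TBC1D1, a target of AMPK that controls glucose transporter traffic, with 2752 reads in Duroc, 2568 in Luchuan and a log2 ratio of 0.46 (0.38 to 0.54), SIK2, a related kinase, with 0.42 (0.35 to 0.49), and PFKFB3, which makes an activator of glycolysis, with 0.37 (0.31 to 0.43). At the Duroc end were MARK4, a related kinase that phosphorylates microtubule-associated proteins, with 4109 Duroc and 1709 Luchuan reads and -0.70 (-0.79 to -0.62), MELK with -0.39 (-0.79 to -0.01), and MAP3K7, a kinase upstream of stress signaling, with -0.33 (-0.45 to -0.21). The window of MARK4 reaches into CKM, the muscle creatine kinase gene. Of the list, only these 3 and PYGM, the muscle glycogen phosphorylase, with -0.31 (-0.37 to -0.25), were lower than PRKAG3.

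Of the 799 regions of the pathway genes, 23 were 2-fold higher in Duroc and 38 in Luchuan, which is 2.88% and 4.76%, against 5.7% and 7.11% of all regions. PPARGC1A, the coactivator of mitochondrial biogenesis that AMPK phosphorylates, had 10 of those higher in Luchuan among its 62 regions and 0 higher in Duroc. Of the 20 regions of PFKFB3, 8 were higher in Luchuan and 1 in Duroc. TBC1D1 had 5 of 29 higher in Luchuan and 0 in Duroc, and TBC1D4, its paralog, had 8 of 49 higher in Duroc and 0 in Luchuan. All 8 of these TBC1D4 regions were called in Duroc only. Most of the regions higher in Luchuan at PPARGC1A, PFKFB3 and TBC1D1 were called in Luchuan only, and some held few reads. A call in 1 breed favors a log2 ratio toward that breed, and Luchuan-specific regions had a median of 0.75 over the whole table. PPARGC1A, PFKFB3, TBC1D1 and TBC1D4 were singled out after their values had been seen.

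**Figure D4:**
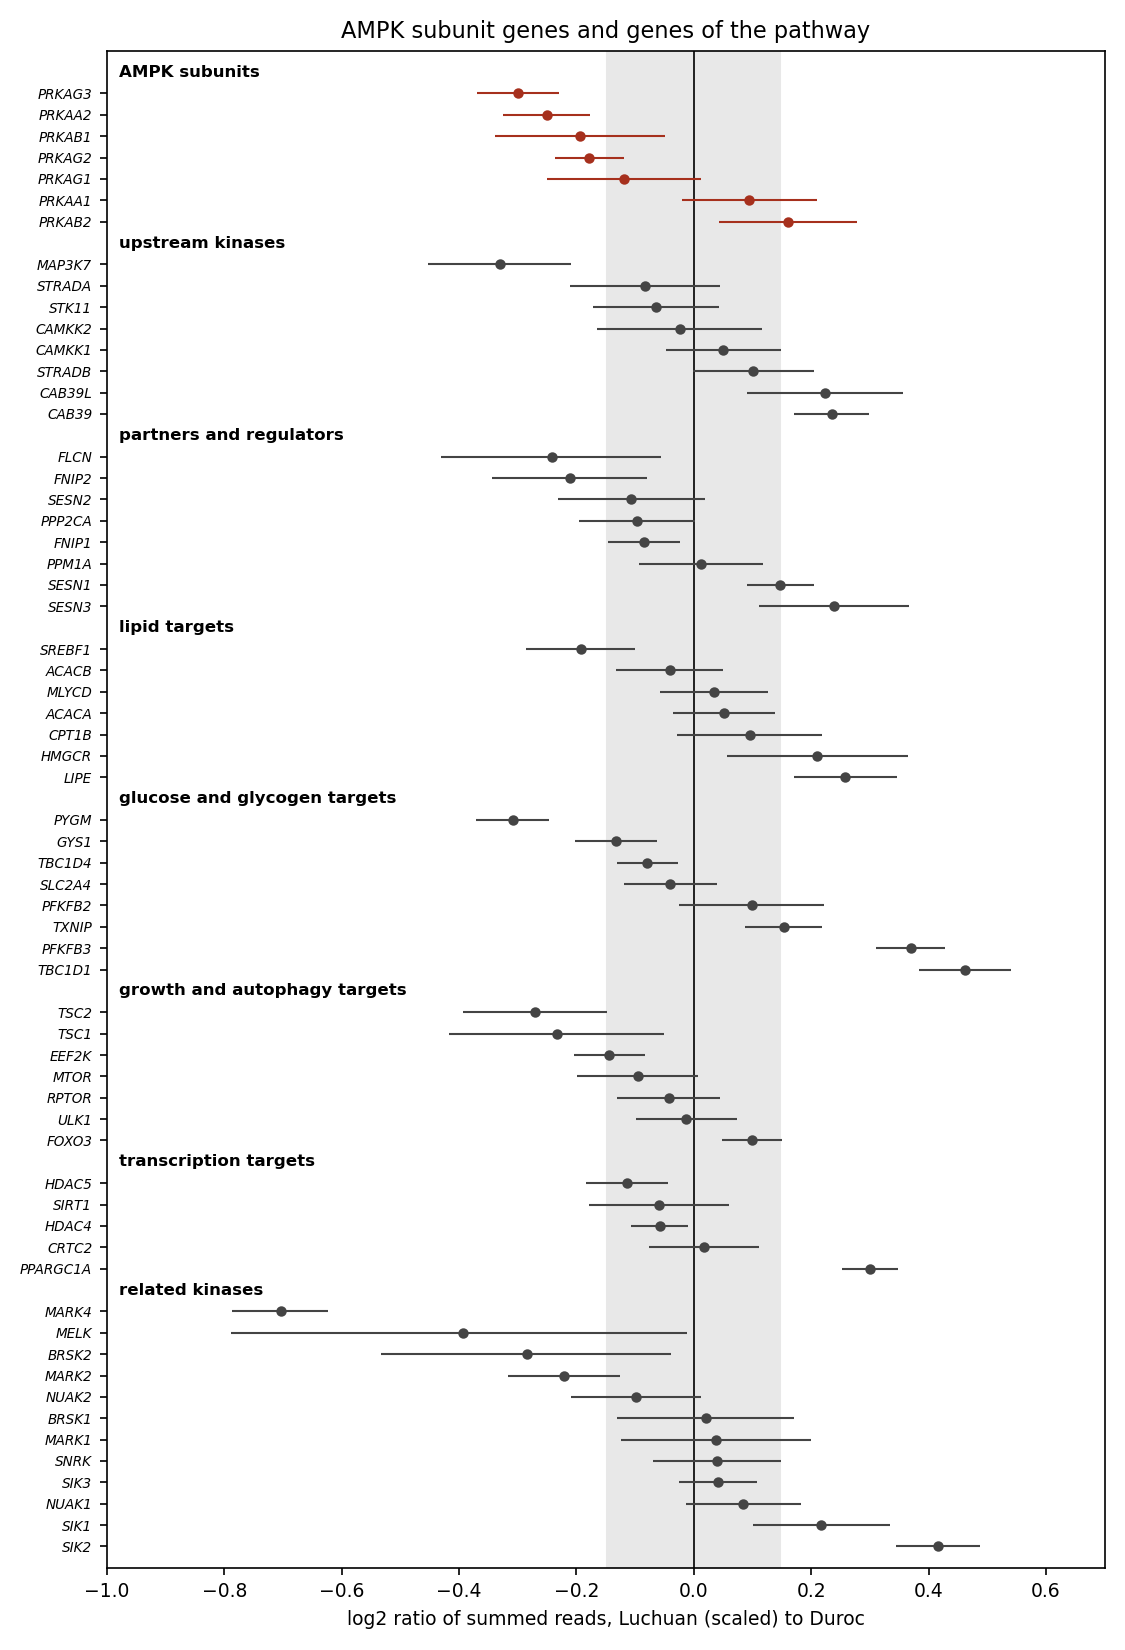
The x axis gives the log2 ratio of summed Luchuan (scaled) to Duroc reads per gene, with 95% counting intervals, for the 7 AMPK genes at the top and the 55 pathway genes by group. The grey band holds the middle 50% of all genes. The AMPK genes run from -0.30 to 0.16 and the pathway genes from -0.70 to 0.46, on both sides of 0 in each group.

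The marker genes of the muscle fiber had log2 ratios below 0 as most AMPK genes had. All 7 listed markers, ACTA1, CKM, MYLPF, TNNT3, TNNI2, TTN and MYBPC1, had regions, with a median of 196.9 Duroc reads per kb of window (61.3 to 232.0) and 173.5 scaled Luchuan reads (54.0 to 207.0), against a median of 18.2 and 18.0 over all genes. Their median log2 ratio was -0.18, and 6 of 7 lay below 0, from -0.47 for CKM to -0.09 for ACTA1, while TTN was at 0.03. All 7 markers thus had more reads per kb than the median gene, as the tissue label would have it. On its own this does not show the cell type. The part of the markers' difference in the values of PRKAG3 and PRKAA2 was not tested. More muscle nuclei in a sample cannot be told apart from more open chromatin per nucleus. Endothelial markers, 4 of 4 with regions, had medians of 0.88 Duroc and 0.99 scaled Luchuan reads per kb. The 4 adipocyte markers had medians of 6.39 and 4.61, but 3 of them had log2 ratios above 0, PLIN1 with 0.33, CIDEC with 0.13 and ADIPOQ with 0.06, while LEP was at -0.94. The 4 leukocyte markers had medians of 4.10 and 4.62, with a range in Duroc from 0.38 to 105.6 for CD68, and the 3 fibroblast markers of 7.01 and 6.97. Log2 ratios were below 0 for 3 of 4 endothelial, 2 of 4 leukocyte and 2 of 3 fibroblast markers, but these signs show no common direction. Intervals lay below 0 for 0 endothelial, 2 leukocyte and 0 fibroblast markers, and above 0 for 1, 1 and 0. The endothelial marker above 0 was TEK with 0.78 (0.33 to 1.25). Among leukocyte markers PTPRC was at -1.07 and CD3E at 1.19. Both satellite cell genes, PAX7 and MYF5, had regions, with log2 ratios of -0.21 and 0.08. The 4 hepatocyte genes, from a cell type that should be lacking, had 1 region each. APOA2 with 25.7 and FGB with 20.9 Duroc reads per kb lay above the median of all genes, and ALB with 0.55 and TTR with 0.36 below it. Reads per kb of a marker thus do not by themselves show that its cell type is present.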

How the data were processed

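Per the labels and methods, the authors used Trimmomatic (v0.36) for filtering, Bowtie2 for alignment to Sscrofa11.1 and MACS2 for peaks. The tool that counted reads is not given in the sources used here. The deposited table holds whole-number read counts, 1 column per breed, without scaling for depth and with no boar named, which were read as pooled. Its log2 fold change, mean log2 signal and p-value columns, also deposited, hold the authors' own comparison and were not used. RNA-seq was not analysed here.

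Starts were counted from 1. Common intervals that overlapped or adjoined were joined and the longest was kept, which gave 140081 regions with 20760292 Duroc and 13746432 Luchuan reads (medians, 61 and 38). Reads of regions were summed per gene. Log2 ratios used a Luchuan factor of 1.48 and 1 added to each count. Exact 95% bounds (Clopper-Pearson) were computed for the share of Luchuan among the reads and moved to the scaled log2 scale. PCR reads that carry no molecular identifier do not count separate molecules. With 1 count per breed no test for count data with replicates was run. Gene positions were those of 19550 protein-coding RefSeq genes of Sscrofa11.1, in which all 7 AMPK genes matched by symbol. No genome sequence was used here.

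The members and lists were chosen with earlier results of these data known. The text names all 7 genes, and of each the region with the most reads, those at or nearest to both gene ends (in place of the gene start, as strand was not given), those past 2-fold with an interval off 0, and all regions where there are 8 or fewer; of the pathway, the 3 highest and 3 lowest genes. Other regions of PRKAA2 and PRKAG2 and PYGM were named after their values had been seen. One of the marker lists is not reported here. The calculation was checked on simulated counts. Computation was in Python 3.11.15 with pandas 2.3.3, NumPy 2.4.6, Matplotlib 3.10.9 and SciPy 1.17.1.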

Additional observations from a re-analysis of the deposited data

How the results depend on the processing

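The results were recomputed under 14 alternatives, 13 of them planned and 1, leaving out the region with the most reads of each gene, chosen after seeing the data. Of 172 values, 155 stayed within the counting interval of the reported value, within 1.5 times the reported count or, for the median over the AMPK regions, within the middle 50% of their log2 ratios, from -0.49 to -0.02, which is a wide range. Some alternatives could hardly move a value, so this count overstates how stable the results are. A limit of 20 reads removed no AMPK region, and adding 0.5 or 5 in place of 1 to the counts left the gene log2 ratios nearly unchanged. PRKAA2, PRKAB1, PRKAG1, PRKAG2 and PRKAG3 stayed below 0 under all 14 alternatives. Scaling by the clean reads per library gave -0.10 for PRKAA1, -0.45 for PRKAA2, -0.39 for PRKAB1, -0.034 for PRKAB2, -0.31 for PRKAG1, -0.37 for PRKAG2 and -0.49 for PRKAG3, and 5 regions 2-fold higher in Duroc, because its factor for Luchuan is 1.29. The median of the region ratios in place of the summed reads gave -0.23 for PRKAB2, -0.27 for PRKAG1 and -0.27 for PRKAG2. Without the region with the most reads, PRKAB1 was at -0.38, PRKAB2, on 1 region of 30 reads, at -0.62, PRKAG1 at -0.27 and PRKAG3 at -0.44. PRKAA1 was at -0.012 without the region in TTC33 and had no region with its midpoint in the gene body alone. Counting every interval, with overlapping calls of the same region counted separately, gave 108 of 140 below 0. With gene bodies alone 1 pathway gene, MARK1, was 2-fold higher in Luchuan (17 Duroc and 28 Luchuan reads, log2 ratio 1.23). The median of the AMPK regions lay between -0.45, with scaling by clean reads, and -0.21 under the alternatives run on it. The interval of PRKAB1 included 0 with gene bodies alone, with 2 kb around them and without regions nearer to another gene, and that of PRKAB2 with clean reads, with a trend over reads and without its strongest region. The interval of PRKAG1 lay below 0 under these last 3 alternatives, and that of PRKAA1 above 0 with scaling by total reads. With every interval counted it was also above 0 for PRKAA1, but reads of overlapping calls are then counted more than once. This narrows the interval, while the log2 ratio of PRKAA1 stayed at 0.09. Leaving out a boar could not be done with pooled counts. No paired analysis was possible because the counts carry no replicate number. With 1 count per breed, depth limits weak regions: the weakest AMPK region held 30 reads.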
